A study of Mus musculus with 6 samples.

Results

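The genes of the NCoR1 corepressor and its partners numbered 9 (of the 22599 gene symbols in the deposited tables, all of them among the 13205 genes tested). They were taken by symbol and are Ncor1, Hdac3, Tbl1x, Tbl1xr1, Gps2, Rcor1, Sin3a, Hdac1 and Hdac2. RNA came from mouse liver and was read by bulk RNA sequencing in 6 libraries, all of which the titles place at 0 h of ischemia-reperfusion. The 3 libraries called flox came from NcoR1fl/fl mice, whose Ncor1 alleles carry loxP sites (n = 3). The other 3, called NcoR1ΔHep, came from mice meant to lack NcoR1 in hepatocytes (n = 3). The genotype field calls the flox mice WT and the others knockdown NcoR1, and the treatment field of all 6 names liver ischemia-reperfusion. The sources used here do not give the Cre driver, the deleted exons, or the age and sex of the mice. No label ties a library to its own animal. The p-values below therefore cover only the variation among these libraries, which may in part be technical.

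NCoR1 is a large scaffold protein without enzyme activity. Nuclear receptors that carry no activating ligand bind it and thereby hold a deacetylase at their target genes. That deacetylase is HDAC3, which gains activity by binding NCoR1. TBL1X and TBLR1 (Tbl1xr1) are WD-repeat proteins of the same complex, and GPS2 is a small subunit that binds them. HDAC1 and HDAC2 work mainly in other complexes, built on the scaffolds SIN3A and CoREST (Rcor1) or in NuRD. In liver the NCoR1 complex is known for keeping lipid metabolism genes in check.

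The libraries held 36975231 to 38470468 counts each. Hepatocyte markers summed to 53543 to 60186 FPKM per library, with none of the 7 at 0, as the tissue label says. FPKM is the authors' read count scaled by gene length and library total. The NcoR1ΔHep 1 library stood apart: Xist, the RNA of the inactive X chromosome, had 17138 counts there and 6 to 18 in the other 5, and Y-linked Ddx3y had 12 counts there against 2008 to 6275. In these RNAs NcoR1ΔHep 1 was thus female-like and the other 5 male-like, though no label gives the sex. The groups were not balanced in sex-linked RNA, as no flox library was female-like. Fold changes of the 9 genes and counts of the related lists are given with and without NcoR1ΔHep 1. By chi-square per degree of freedom of their counts, the closest libraries were pairs from different groups, flox 3 with NcoR1ΔHep 2 (39.5) and flox 2 with NcoR1ΔHep 3 (67.4), and the closest pair within a group was flox 1 with flox 2 (104). Markers of sinusoidal endothelial cells (8 of 8 detected) summed to 48.0 to 131 FPKM in flox and 32.3 to 79.4 FPKM in NcoR1ΔHep. Those of Kupffer cells (7 of 7) summed to 129 to 197 FPKM and 83.7 to 212 FPKM, and those of stellate cells (7 of 7) to 87.6 to 117 FPKM and 122 to 130 FPKM. The stellate sums did not overlap, but most of each was Dcn (60.2 to 80.8 FPKM and 80.6 to 107 FPKM, with overlap), and none of the 7 genes had groups apart. The sums for cholangiocytes (22.1 to 102 FPKM), neutrophils (3.31 to 22.3 FPKM) and lymphocytes (1.46 to 3.95 FPKM) overlapped. In bulk tissue fewer cells of a type and less RNA per cell cannot be told apart, and the part of these cells in the results below was not tested.

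Whether the NcoR1ΔHep livers held less Ncor1 RNA, and whether the partner genes moved with it, was asked of the 2 groups. None of the 9 genes passed edgeR's quasi-likelihood test with Benjamini-Hochberg adjustment, where 0% of all tested genes passed (0 of 13205). None had an unadjusted p under 0.05, against 3.35% of all tested genes (443), and DESeq2 called none of the 9 either (0.0246% of the 20289 genes it adjusted, 5 genes). By log2 fold change 4 members were higher and 5 lower in NcoR1ΔHep, with a median of -0.17, while 46.5% of all tested genes were lower and their median was 0.031. Without NcoR1ΔHep 1, 5 members were higher and 4 lower, with a median of 0.0025.

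Ncor1, the targeted gene, lies on chromosome 11 (chr11:62315663-62457414, minus strand, GRCm38.p6 in RefSeq). In the flox libraries, in the order of their numbers, its level was 6.78, 6.70 and 7.72 FPKM. In NcoR1ΔHep 1, 2 and 3 it was 5.34, 6.63 and 4.93 FPKM. In FPKM the groups did not overlap, but NcoR1ΔHep 2 and flox 2 lay close together. Ncor1 was the only member whose groups were apart in this way. Among all tested genes 4.95% lay apart with NcoR1ΔHep lower, 2.61% with NcoR1ΔHep higher and 7.56% in either direction, so 1 member of 9 is near the background. The flox mean was 7.07 ± 0.570 FPKM and the NcoR1ΔHep mean 5.63 ± 0.886 FPKM (SD, n = 3 each). The log2 fold change was -0.31 (SE 0.21, 95% interval -0.80 to 0.17, edgeR adjusted p = 0.931), and 17.4% of all tested genes had one as low or lower. Permuting the group labels over the FPKM values gave an exact two-sided p = 0.1, which 3 against 3 cannot go below. With counts scaled by TMM factors the groups overlapped and the exact permutation p was 0.2. On that scale no member lay apart, against 5.53% of all tested genes with NcoR1ΔHep lower and 8.82% in either direction. Without NcoR1ΔHep 1 the log2 fold change was -0.21 (SE 0.20).

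Ncor1 had 2114 to 3279 counts per library, for which counting alone gives a coefficient of variation of 1.91%, while the libraries of a group differed by 12.5%. The other members had 210 to 2072 counts per library. Their counting variation was 2.35% to 5.75% and their within-group variation 13.7% to 38.3%, highest in Gps2.

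The counts of a gene as a whole do not separate hepatocyte Ncor1 RNA from that of other liver cells, and they cannot show the loss of single exons. In GENCODE the gene shares part of its span with Ttc19 and 82 bases with Pigl, both on the opposite strand, and the sources used here do not say whether the counting used strand. Ttc19, which encodes a mitochondrial protein, had at most 436 counts in a library. Its log2 fold change was -0.41 (SE 0.33, edgeR adjusted p = 0.931). The nearest tested genes on either side showed no call. Pigl, a GPI-anchor enzyme gene that RefSeq, unlike GENCODE, places 1027 bases away, averaged 1.46 ± 0.437 FPKM in the flox libraries and 1.42 ± 0.271 FPKM in the others (SD, n = 3 each). Cenpv, further out on that side, had a log2 fold change of 0.23 (SE 0.32). On the other side Zswim7 had 0.38 (SE 0.30) and Specc1 -0.12 (SE 0.40), all with an edgeR adjusted p of at least 0.931.

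**Figure D1:**
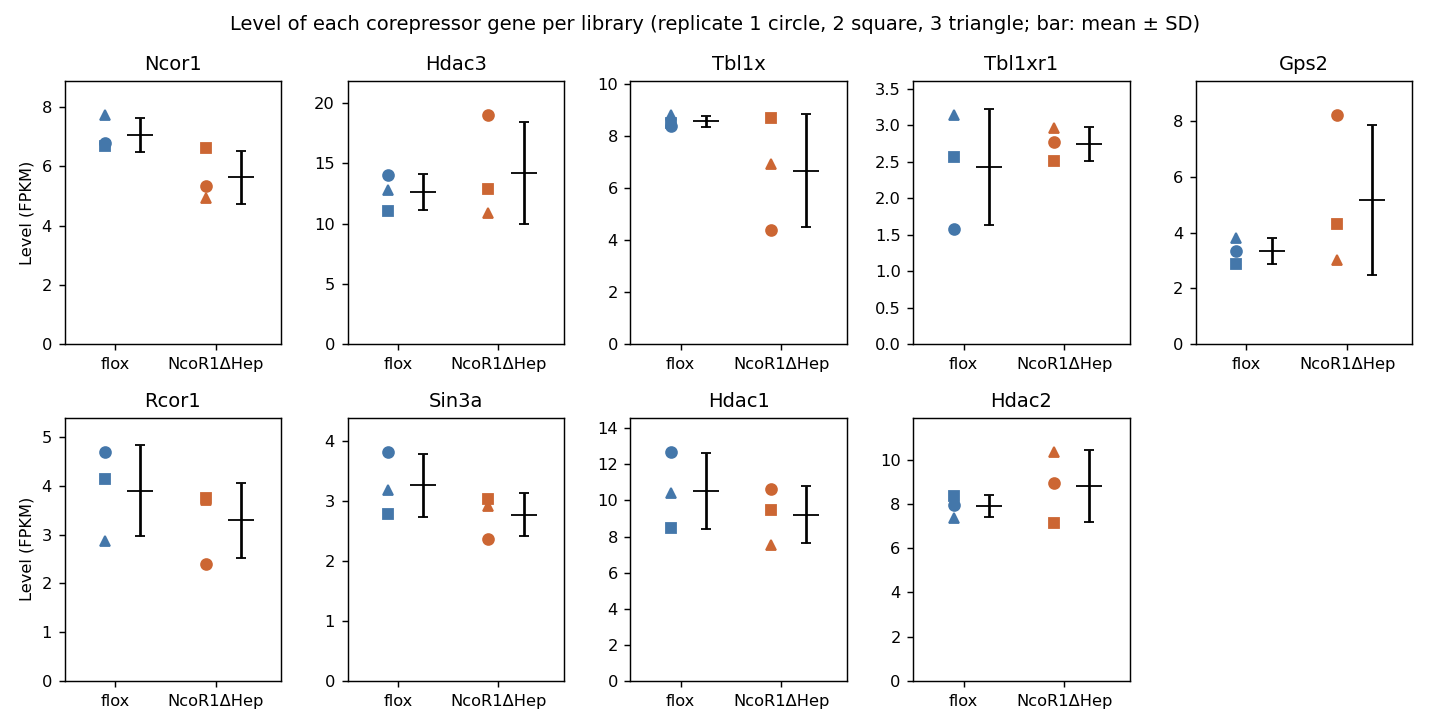
FPKM of the 9 genes in each library, 1 panel per gene with its own linear axis from 0. Coloured points are libraries and black bars the mean ± SD of 3. Ncor1 alone has all NcoR1ΔHep points below all flox points, and in Gps2, Hdac3 and Tbl1x the NcoR1ΔHep 1 circle lies far from the other points.

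Hdac3, the catalytic subunit, had the highest mean FPKM of the members. It was at 14.1, 11.1 and 12.8 FPKM in flox and at 19.0, 12.8 and 10.9 FPKM in NcoR1ΔHep. The NcoR1ΔHep libraries held both the highest and the lowest value, and the groups overlapped. The log2 fold change was 0.18 (SE 0.22, 95% interval -0.32 to 0.68, edgeR adjusted p = 0.938), and 0.0025 (SE 0.17) without NcoR1ΔHep 1.

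Gps2 (chr11:69913980-69917056, plus strand, GRCm38.p6, as for the positions that follow) had the largest fold change of the 9 and the widest spread. Its level was 3.33, 2.88 and 3.80 FPKM in flox and 8.20, 4.29 and 3.01 FPKM in NcoR1ΔHep. Of these only NcoR1ΔHep 1 and NcoR1ΔHep 2 were above all flox libraries, and NcoR1ΔHep 1 was 2.85 times the lowest library. The log2 fold change was 0.62 (SE 0.34, 95% interval -0.15 to 1.39, edgeR unadjusted p = 0.102, adjusted p = 0.931). It was 0.21 (SE 0.24) without NcoR1ΔHep 1 and 0.84 (SE 0.32, edgeR unadjusted p = 0.0303, adjusted p = 0.626) without NcoR1ΔHep 3. Gps2 also rests on the fewest reads of the members, 210 to 583 counts per library.

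Tbl1x, whose protein holds the complex on chromatin, lies on the X chromosome (chrX:77509549-77662722, plus strand). It was at 8.40, 8.50 and 8.80 FPKM in flox, a narrow range, and at 4.38, 8.70 and 6.95 FPKM in NcoR1ΔHep. The lowest value was that of NcoR1ΔHep 1, the library with high Xist, and NcoR1ΔHep 2 lay within the flox range. The log2 fold change was -0.33 (SE 0.29, 95% interval -1.003 to 0.35, edgeR adjusted p = 0.931), and -0.050 (SE 0.18) without NcoR1ΔHep 1. Whether the sex-linked difference has a part in the low value was not tested.

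Tbl1xr1, the autosomal relative of Tbl1x (chr3:22076253-22216594, plus strand), was at 1.57, 2.57 and 3.13 FPKM in flox and at 2.77, 2.51 and 2.96 FPKM in NcoR1ΔHep. Here the flox libraries spread the most, with flox 1 lowest of all 6 and flox 3 highest. The log2 fold change of 0.18 (SE 0.31, edgeR adjusted p = 0.953) was -0.077 without flox 1 and 0.26 (SE 0.35) without NcoR1ΔHep 1. In FPKM Tbl1x exceeded Tbl1xr1 in each library, by 2.81 to 5.34 times in flox. It did so by 1.58 times in NcoR1ΔHep 1, 3.47 times in NcoR1ΔHep 2 and 2.35 times in NcoR1ΔHep 3. Their summed level was 9.98 to 11.9 FPKM in flox and 7.15 FPKM in NcoR1ΔHep 1, against 11.2 FPKM in NcoR1ΔHep 2 and 9.91 FPKM in NcoR1ΔHep 3.

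The scaffolds of the other deacetylase complexes had no call. Rcor1 (chr12:111039367-111115902, plus strand) was at 4.69, 4.14 and 2.88 FPKM in flox and at 2.40, 3.75 and 3.72 FPKM in NcoR1ΔHep, with overlap. Its log2 fold change was -0.20 (SE 0.29, 95% interval -0.86 to 0.45, edgeR adjusted p = 0.949) and 0.035 (SE 0.24) without NcoR1ΔHep 1, so its direction rests on that library. Sin3a (chr9:57071991-57128368, plus strand), which encodes the platform of the SIN3 complex, was at 3.82, 2.78 and 3.19 FPKM in flox and at 2.36, 3.04 and 2.92 FPKM in NcoR1ΔHep. The groups overlapped, and the log2 fold change of -0.19 (SE 0.21, edgeR adjusted p = 0.933) was -0.027 (SE 0.19) without NcoR1ΔHep 1.

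Hdac1 and Hdac2 encode closely related deacetylases, so whether reads can be assigned to either was checked against the GENCODE M21 transcripts (GRCm38). No run of 50 bases of one coding sequence occurred in the transcripts of the other, nor did any pair of the 9 genes share one. Hdac1 does share sequence with a processed pseudogene, Gm10093 (chr17:78491582-78493025, plus strand, GRCm38). Of the runs of 50 bases in the Hdac1 coding sequence, 80.2% occurred in Gm10093, and the copies differed at 9 of 1444 aligned bases (99.4% identity). The counts used here have no entry for Gm10093, so no reads were credited to it there. The stretch below, coding bases 367 to 456 of Hdac1 and the matching bases of Gm10093, shows how little separates them. Capitals mark the differing bases, C408T and T441A, counted from the A of the Hdac1 start codon with the Hdac1 base first.
Hdac1: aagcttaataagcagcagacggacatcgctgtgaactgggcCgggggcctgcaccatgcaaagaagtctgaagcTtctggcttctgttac
Gm10093: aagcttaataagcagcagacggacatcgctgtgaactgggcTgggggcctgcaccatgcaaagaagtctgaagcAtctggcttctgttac
The sources used here do not say how reads that match both were counted, so the level of Hdac1 is uncertain. In the other 8 genes at most 4.83% of such runs occurred in another gene (Gps2, with the pseudogene Gm5221), 1.26% in Ncor1 and none in Hdac2, Hdac3, Tbl1x and Tbl1xr1.

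With that limit, Hdac1 (chr4:129516104-129542646, minus strand) was at 12.7, 8.48 and 10.4 FPKM in flox and at 10.6, 9.45 and 7.50 FPKM in NcoR1ΔHep. The flox 1 library was highest and NcoR1ΔHep 3 lowest, and the groups overlapped (log2 fold change -0.17, SE 0.19, 95% interval -0.62 to 0.28, edgeR adjusted p = 0.935). Without NcoR1ΔHep 1 the log2 fold change was -0.21 (SE 0.20). Hdac2 (chr10:36974297-37001889, plus strand) was at 7.94, 8.38 and 7.38 FPKM in flox and at 8.95, 7.14 and 10.3 FPKM in NcoR1ΔHep. Its extremes were both NcoR1ΔHep libraries, and the log2 fold change of 0.19 (SE 0.24, 95% interval -0.36 to 0.74, edgeR adjusted p = 0.941) was -0.040 without NcoR1ΔHep 3 and 0.25 (SE 0.26) without NcoR1ΔHep 1. The summed level of Hdac1 and Hdac2 varied little, from 16.9 to 20.6 FPKM in flox and from 16.6 to 19.6 FPKM in NcoR1ΔHep. The ratio of Hdac1 to Hdac2 ran from 1.01 to 1.60 in flox. It was 1.19 and 1.32 in NcoR1ΔHep 1 and NcoR1ΔHep 2, and 0.725 in NcoR1ΔHep 3, the only library where Hdac2 was the higher.

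**Figure D2:**
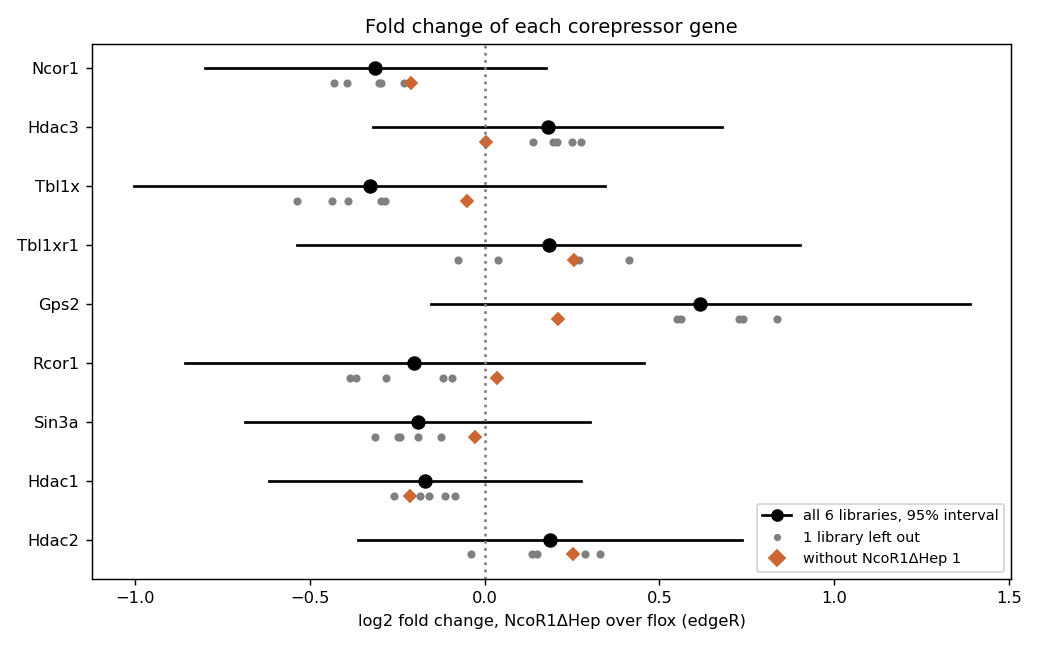
edgeR log2 fold change of NcoR1ΔHep over flox for each gene, with the 95% interval as a black line and the values with 1 library left out as small points below it. All 9 intervals cross 0, and the orange diamonds, without NcoR1ΔHep 1, lie near 0 for Hdac3, Tbl1x, Rcor1 and Sin3a.

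By mean FPKM over the 6 libraries the order was Hdac3 (13.4), Hdac1 (9.86, with the limit given above), Hdac2 (8.36), Tbl1x (7.62), Ncor1 (6.35), Gps2 (4.25), Rcor1 (3.60), Sin3a (3.02) and Tbl1xr1 (2.58). That order rests on the fixed gene length behind FPKM. The length was 14231 bases for Tbl1xr1, 11483 for Ncor1 and 6334 for Tbl1x, against 1898 for Gps2, 1971 for Hdac1 and 2005 for Hdac3. In counts Tbl1xr1 was above Tbl1x in NcoR1ΔHep 1 (1475 against 1040). Neighbours in that order were not all distinct. Hdac3 was above Hdac1 in 6 of 6 libraries, whereas Hdac2 was above Tbl1x in 2 of 6 and Gps2 above Rcor1 in 3 of 6. Tbl1x was above Ncor1 in 5 of 6 libraries, all but NcoR1ΔHep 1. The genes lay in the middle to upper range of liver expression: Hdac3 had a mean level above 79.4% of all tested genes, Ncor1 above 66.9% and Tbl1xr1 above 49.1%.

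How the members differed from library to library was counted as extremes. NcoR1ΔHep 1 held the highest or the lowest of the 6 values for 5 of the 9 genes: Hdac3 and Gps2 were highest there, and Tbl1x, Rcor1 and Sin3a lowest. Over all tested genes this library held an extreme for 55.5%, so the members' share was that of the background. NcoR1ΔHep 3 held an extreme for 4 of 9 (42.1% of all tested genes) and flox 1 for 4 of 9 (34.6%).

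A ratio of 2 genes within a library does not depend on how libraries are scaled, so Ncor1 was also set against its partners. Against the geometric mean of the other 8 members, Ncor1 stood at 1.19, 1.28 and 1.38 in flox and at 0.947, 1.19 and 0.942 in NcoR1ΔHep. NcoR1ΔHep 2 was just above flox 1, so the groups overlapped. The mean log2 ratio was 0.36 ± 0.11 in flox and 0.029 ± 0.19 in NcoR1ΔHep (SD, n = 3 each). Against Hdac3 the ratio was 0.482, 0.605 and 0.605 in flox and 0.281, 0.516 and 0.454 in NcoR1ΔHep, with NcoR1ΔHep 2 inside the flox range. Against Gps2 it was 2.04, 2.33 and 2.03 in flox and 0.651, 1.54 and 1.64 in NcoR1ΔHep. There the groups did not overlap, but Ncor1 FPKM alone already lay apart, so the ratio is no separate result. Its lowest value, 0.651, was that of NcoR1ΔHep 1, where Gps2 was highest (8.20 FPKM). How often Ncor1 lies apart against other genes was not computed. Against Tbl1x the ratio was 0.788 to 0.877 in flox, 0.762 and 0.710 in NcoR1ΔHep 2 and NcoR1ΔHep 3, and 1.22 in NcoR1ΔHep 1, where Tbl1x was low. These ratios were chosen from the members and carry no test.

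**Figure D3:**
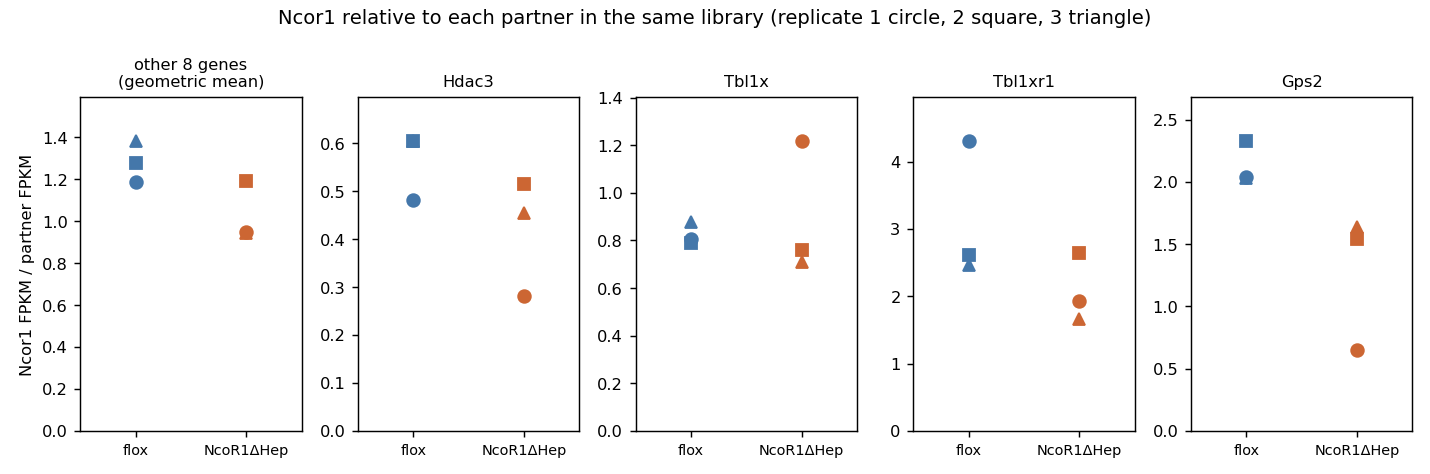
Ratio of Ncor1 FPKM to that of each partner in the same library, 1 panel per partner with its own linear axis from 0; each point is a library. The groups lie apart against Gps2, as they did for Ncor1 FPKM alone, and overlap in the other 4 panels. The share over all genes was not computed.

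The genes most like Ncor1 across the 6 libraries were sought by the root-mean-square difference of log2 TMM-scaled CPM, each gene centred on its own mean. The 5 closest were Ccdc6 (0.0454), Skap2 (0.0473), Nepro (0.0524), Bend3 (0.0547) and Vezt (0.0548). Skap2, for example, was at 9.08, 8.83 and 10.5 FPKM in flox and at 6.71, 8.49 and 6.82 FPKM in NcoR1ΔHep. The median difference from Ncor1 over all tested genes was 0.43, and 44 genes were closer than 0.1. None of the other 8 members was among these 44, a small part of the 13205 tested genes. Sin3a was the nearest member (0.21), and Hdac1 (0.24), Tbl1x (0.25), Rcor1 (0.35), Hdac3 (0.37) and Hdac2 (0.39) were also closer than the median. Tbl1xr1 (0.430, against a median of 0.427) and Gps2, the farthest (0.61), were not.

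Genes that share these complexes were described next, by their counts and medians. In FPKM 1 of 8 other NCoR1 complex genes lay apart with NcoR1ΔHep lower, against 4.95% of all tested genes. So did 1 of 10 genes each in NuRD, other corepressors and coactivators, and 2 of 20 factors listed as recruiting NCoR1. Apart with NcoR1ΔHep higher were 1 of 10 other deacetylases, 2 of 10 coactivators and 1 of the 20 factors, against 2.61%. In the CoREST and SIN3 lists 0 genes lay apart. Of 8 other genes found with the NCoR1 complex, 5 were higher and 3 lower in NcoR1ΔHep (median log2 fold change 0.093), and none passed the adjusted edgeR threshold. Without NcoR1ΔHep 1, 4 were higher and 4 lower (median -0.040). Kdm4a, a histone demethylase found with NCoR1, was the only one with an unadjusted p under 0.05, as 1.92% of all tested genes were with NcoR1ΔHep lower and 1.43% with NcoR1ΔHep higher. It was at 4.57, 3.60 and 3.54 FPKM in flox and at 2.94, 3.22 and 2.09 FPKM in NcoR1ΔHep. All NcoR1ΔHep libraries were below all flox libraries (log2 fold change -0.49, SE 0.20, edgeR unadjusted p = 0.0421, adjusted p = 0.931). Without NcoR1ΔHep 1 the log2 fold change of Kdm4a was -0.47, its unadjusted edgeR p was 0.0677, and no gene of the list had one under 0.05. Coro2a, a coronin of the complex, had 0.53 (SE 0.46) from 19 to 63 counts per library, or 0.17 without NcoR1ΔHep 1.

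CoREST genes other than Rcor1 had 6 of 8 tested members higher and a median of 0.17, with Rcor2 below the count filter. Gse1 was at 0.528, 0.343 and 0.578 FPKM in flox and at 0.681, 0.487 and 1.41 FPKM in NcoR1ΔHep, where NcoR1ΔHep 3 was highest (log2 fold change 0.90, SE 0.44, edgeR adjusted p = 0.931). Without NcoR1ΔHep 1 the log2 fold change of Gse1 was 1.12 (SE 0.48). Rcor3, a paralog of Rcor1, had 0.56 (SE 0.37), or 0.30 without NcoR1ΔHep 1. Without that library the CoREST genes were 4 higher and 4 lower, with a median of 0.030.

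In the SIN3 complex, apart from the members, 10 of 16 tested genes were higher (median 0.16), and 12 without NcoR1ΔHep 1 (median 0.13). Phf12, a PHD-finger subunit, had 0.50 (SE 0.31), or 0.12 without NcoR1ΔHep 1. Brms1, another subunit, had 0.34 (SE 0.25), or 0.14 without that library. The median of the list moved most with a single NcoR1ΔHep library, to -0.022 without NcoR1ΔHep 3, and was 0.27 without flox 3. Of 10 NuRD genes 6 were higher (median 0.020), and 7 without NcoR1ΔHep 1 (median 0.032). Gatad2a had 0.30 (SE 0.23), or 0.29 without that library, and Cdk2ap1 had 0.25 (SE 0.27), or 0.13.

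Among 10 other deacetylases 9 were higher in NcoR1ΔHep and Hdac11 was lower, with a median of 0.24. Over all tested genes 53.5% were higher and the median was 0.031. The list of 10 leaves out Hdac4, Hdac5, Hdac7, Hdac9 and Hdac10, which were counted with the NCoR1 complex. These had log2 fold changes of -0.035, 0.15, 0.033, -0.096 and 0.35, in that order, so the share depends on the split. Without NcoR1ΔHep 1 they had 0.0085, 0.0073, -0.97, -0.27 and -0.086. None of the 10 passed the adjusted threshold, nor had any an unadjusted edgeR p under 0.05. Sirt5, a mitochondrial deacylase, was at 2.99, 3.01 and 3.20 FPKM in flox and at 5.54, 3.60 and 3.47 FPKM in NcoR1ΔHep, higher in all 3 NcoR1ΔHep libraries (log2 fold change 0.46, SE 0.22, edgeR unadjusted p = 0.0756, adjusted p = 0.931). Sirt7, a nuclear sirtuin, was at 11.4, 8.83 and 11.8 FPKM in flox and at 17.7, 13.6 and 11.1 FPKM in NcoR1ΔHep (log2 fold change 0.42, SE 0.21). Its groups overlapped in FPKM but not with TMM scaling, at 17.7 to 22.4 CPM in flox and 23.1 to 30.9 CPM in NcoR1ΔHep. Without NcoR1ΔHep 1, 8 of the 10 were higher with a median of 0.20, and Sirt5 and Sirt7 had 0.30 each.

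Other corepressors of nuclear receptors divided evenly, 5 higher and 5 lower (median -0.0039), and were 3 higher and 7 lower without NcoR1ΔHep 1 (median -0.13). Trim24, a corepressor of the retinoic acid receptor, was at 1.72, 1.94 and 1.88 FPKM in flox and at 9.04, 1.40 and 3.16 FPKM in NcoR1ΔHep. The high value was that of NcoR1ΔHep 1, and NcoR1ΔHep 2 was lowest of all 6. Its log2 fold change of 1.27 (SE 0.56, edgeR unadjusted p = 0.0511, adjusted p = 0.931) was 0.43 (SE 0.39) without NcoR1ΔHep 1. Lcor, a ligand-dependent corepressor, was at 0.482, 0.325 and 0.401 FPKM in flox and at 0.245, 0.319 and 0.267 FPKM in NcoR1ΔHep, lower in all 3 (log2 fold change -0.50, SE 0.24, edgeR adjusted p = 0.931). Without NcoR1ΔHep 1 the log2 fold change of Lcor was -0.36 (SE 0.23).

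Coactivators, which compete with NCoR1 for the receptors, were 5 higher and 5 lower (median 0.065), and 7 higher and 3 lower without NcoR1ΔHep 1 (median 0.14). Ppargc1b was at 0.293, 0.517 and 0.597 FPKM in flox and at 0.754, 0.668 and 0.888 FPKM in NcoR1ΔHep, without overlap (log2 fold change 0.72, SE 0.35, edgeR adjusted p = 0.931). Without NcoR1ΔHep 1 the log2 fold change of Ppargc1b was 0.82 (SE 0.39). The acetyltransferase gene Crebbp, also apart in FPKM with NcoR1ΔHep higher, had 0.34 (SE 0.21), or 0.20 without NcoR1ΔHep 1.

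Of 20 factors listed here as recruiting NCoR1, among them the thyroid hormone, retinoic acid and REV-ERB receptors, 10 were higher and 10 lower (median 0.025), or 9 and 11 without NcoR1ΔHep 1 (median -0.062). With all 6 libraries only Nr2f2, the orphan receptor COUP-TFII, had an unadjusted p under 0.05. It was at 3.60, 7.13 and 4.80 FPKM in flox and at 7.97, 7.30 and 15.3 FPKM in NcoR1ΔHep (log2 fold change 1.01, SE 0.43, edgeR unadjusted p = 0.0465, adjusted p = 0.931). The groups were apart in FPKM, with flox 2 just under NcoR1ΔHep 2, and overlapped with TMM scaling. Bcl6, a repressor that binds NCoR1, was at 3.46, 2.70 and 3.82 FPKM in flox and at 1.83, 7.42 and 5.83 FPKM in NcoR1ΔHep, where NcoR1ΔHep 1 was lowest of all 6 and the other 2 highest. Its log2 fold change was 0.65 (SE 0.47, edgeR unadjusted p = 0.206, adjusted p = 0.931). Without NcoR1ΔHep 1 it was 1.08 (SE 0.20, edgeR unadjusted p = 0.00106, adjusted p = 0.998). Nr2f2 then had 1.23 (unadjusted p = 0.0327), and of the other lists Ncoa3 (-0.57) and Chd3 (-0.45) had an unadjusted edgeR p under 0.05, as had 325 of 13391 genes, with none past the adjusted threshold. Ppard, the receptor PPARδ, was highest in flox 1 (3.25 FPKM), and the remaining 5 libraries had 0.616 to 1.33 FPKM (log2 fold change -0.88, SE 0.45). Without NcoR1ΔHep 1 the log2 fold change of Ppard was -1.12 (SE 0.51).

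**Figure D4:**
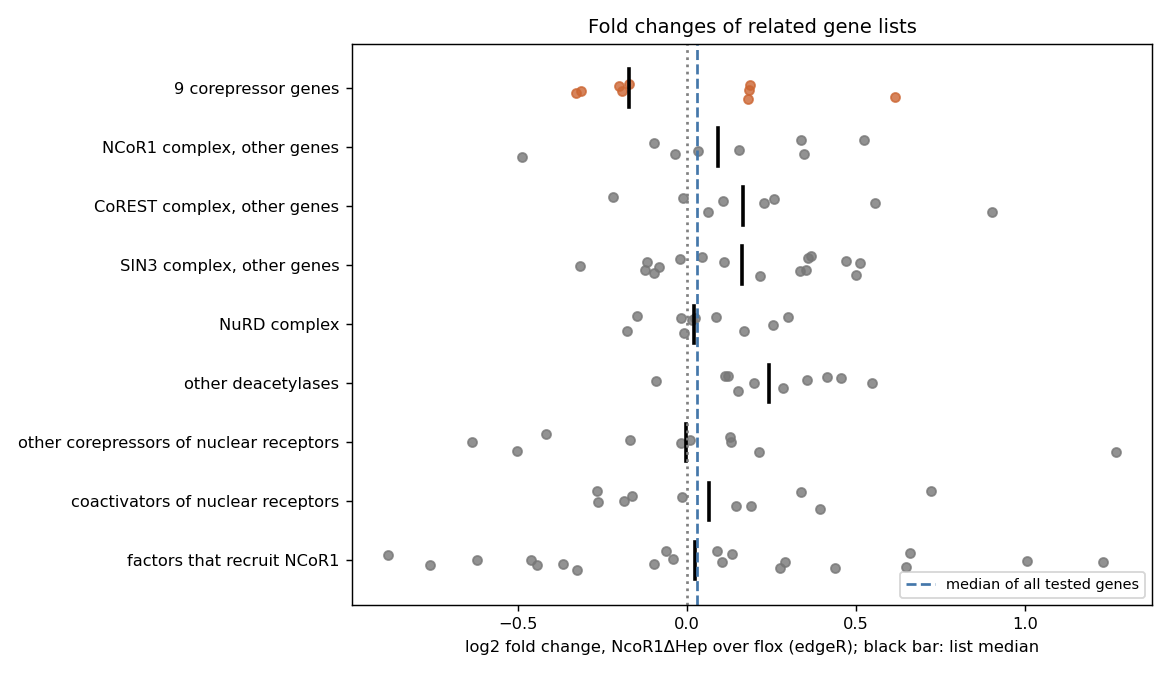
edgeR log2 fold changes of the 9 genes (orange) and of 8 lists of related genes (grey), 1 point per tested gene. Black bars are list medians, the dashed line is the median of all tested genes (0.031), and the medians run from -0.17 for the 9 genes to 0.24 for other deacetylases.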

How the data were processed

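The authors deposited read counts per gene symbol and FPKM for the same 22599 genes and 6 libraries. Per the file headers each column carries a sample title. FPKM in the deposited table equals the count divided by a fixed gene length and the library total: among 12656 genes with at least 20 counts in 2 libraries, the implied length was whole within 0.01 in 100% of genes. The submitters' processing notes name GRCm38, mm10 and hg38, with no role. The sources used here give no aligner, counter or strand setting. Positions come from RefSeq (GRCm38.p6) or GENCODE M21 and 97.2% of symbols matched RefSeq. Protein sequences were not used here.

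Genes were filtered with filterByExpr (minimum count 10, total 15), which left 13205 genes with 99.95% of counts. NcoR1ΔHep was compared with flox by edgeR 4.0.16 (R 4.3.3, TMM, quasi-likelihood, two-sided, Benjamini-Hochberg, threshold 0.05), and standard errors come from the F statistic. DESeq2 1.42.0 and limma 3.58.1 served as alternatives. No pair of libraries agreed within counting noise.

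The members and lists were chosen with earlier results of these data known. Named are the members; the 2 genes of each list with the smallest p; Xist and Ddx3y; the 2 tested genes nearest Ncor1 on each side; and the 5 most like it. Ttc19, Hdac4, Hdac5, Hdac7, Hdac9, Hdac10, Hdac11, Rcor2, Dcn, Bcl6, Nr1i3, Ncoa3 and Chd3 were named after their values were seen. A planned gene is not reported here.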

Additional observations from a re-analysis of the deposited data

How the results depend on the processing

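Under 10 other settings (DESeq2, other scaling, filters, limma-voom, limma on FPKM with a pseudocount of 1 or 0.1, and the replicate block) each of the 9 log2 fold changes kept its sign, and none passed the threshold. The log2 fold change of Ncor1 ran from -0.33 to -0.29 over them. With 1 library left out it ran from -0.43 to -0.21, with a smallest adjusted p of 0.684; over all 9 genes the smallest was 0.626, for Gps2 without NcoR1ΔHep 3. Signs turned with 1 library left out for Tbl1xr1 without flox 1 (range -0.077 to 0.41), Rcor1 without NcoR1ΔHep 1 (-0.38 to 0.035) and Hdac2 without NcoR1ΔHep 3 (-0.040 to 0.33). DESeq2 called 5 genes, none a member, against 0 in edgeR. The FPKM groups lay apart in 1 member, in 0 with TMM-scaled CPM, and in 1 to 3 with a library left out, a choice made after seeing the data. A smaller group lies apart more often, in 10.5% to 22.6% of all tested genes. With limma on log2(FPKM + 1) the SIN3 median was 0.065 with a filter and 0.081 without, and the CoREST median without a filter was 0.019; the cause was not tested. With a library left out, medians ran from -0.022 to 0.27 for SIN3, from -0.097 to 0.15 for coactivators, from -0.038 to 0.19 for NuRD and from 0.030 to 0.22 for CoREST. Same-numbered libraries did not pair: their deviations from the group means correlated at 0.018, -0.32 and -0.46, and not every library correlated best with its own number: flox 2 did so with NcoR1ΔHep 3 (0.55) and flox 3 with NcoR1ΔHep 2 (0.28). With the replicate block edgeR called 0 genes, as without it, and Ncor1 had -0.31.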
